A study of Mus musculus with 10 samples.

Results

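The genes described here encode the nuclear part of the oxidative phosphorylation system, measured in mouse colonic organoids with and without PPARγ. They were Ndufa4, Uqcrq, Sdhd, Atp5c1, Cycs and Cyc1 together with each symbol of the array annotation that starts with Nduf followed by a, b, c, s or v and a number, with Uqcr, with Cox4 to Cox8 followed by a, b or c, or with Atp5, and with Sdha to Sdhd. Only probe sets with a single symbol were used, and where a gene had several, the one with the highest mean over the 10 arrays stood for it. This gave 80 genes of the 18820 measured. Complex I had 33 of them, complex II 4, complex III 8, complex IV 17 and complex V 17, and cytochrome c counted alone. Ndufa4, once assigned to complex I and now known as a subunit of complex IV, was counted in complex IV, as was its relative Ndufa4l2. Cox7c, Ndufa13 and Uqcrc2 were found only in probe sets that name several genes and were left out. Cox4i1 and Ndufab1 lie outside the naming rule, and 0 of the 13 proteins encoded by mitochondrial DNA were found by symbol, so every value below is for a nuclear gene.

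Oxidative phosphorylation takes place in the inner mitochondrial membrane. Complex I (NADH dehydrogenase) and complex II (succinate dehydrogenase) pass electrons to ubiquinone, complex III passes them on to cytochrome c, and complex IV (cytochrome c oxidase) hands them to oxygen, while the protons pumped along the way drive ATP synthase, complex V. Colonic epithelial cells burn butyrate from the gut flora in their mitochondria, and several nuclear receptors and their coactivators act on mitochondrial genes in other tissues.

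Organoids were grown from colonic crypts of male mice on a C57BL/6J background (strain label C57/BL6), 3 wild-type mice and 3 littermates homozygous for the deletion, named here as the labels do, wild type (WT) and PPARγ KO. In the KO, exons 1 and 2 of the Pparg gene were floxed and Cre was driven by the villin promoter, which is active in intestinal epithelium. For 24 h the cultures received rosiglitazone, a PPARγ agonist, at 1 µM, or 0.1% DMSO as vehicle, in a medium that held growth factors, Wnt, nicotinamide and kinase inhibitors in all groups. The labels used here give no age. The groups were WT vehicle (mice 42 and 47), WT rosiglitazone (mice 42, 47 and 48), KO vehicle (mice 44 and 46) and KO rosiglitazone (mice 44, 45 and 46). Mice 45 and 48 therefore gave no vehicle array. The treatment comparisons set 3 arrays against 2, and the genotypes were compared at 2 against 2 in vehicle and 3 against 3 in rosiglitazone. The difference between the responses uses every array. Comparisons that use the same group share its arrays.

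Each value is an RMA expression value on the log2 scale, so a difference of 1 is a doubling of signal. Arrays give no count depth, and their number limits the precision. Array medians over all probe sets ran from 3.54 to 3.72, and a value minus that median is called the relative value. The single probe set of Pparg read 7.59 to 8.41 in WT arrays and 7.37 to 8.78 in arrays labelled KO. Nothing used here places its probes inside or outside the floxed exons, so these values check neither the deletion nor the labels. All 12 epithelial markers (Epcam, Cdh1, keratins and others) were above the array median on each array. Of the measured markers of fibroblasts, immune cells and endothelium at most 1 per list was above it on any array, and of those of smooth muscle and neural cells 0. The first principal component set both arrays of mouse 46 apart, at -39.30 in vehicle and -31.75 in rosiglitazone, with the others between -4.10 and 19.60. Some results between the genotypes are therefore also given without these arrays. A result without such a value was not necessarily stable to leaving them out.

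Stretches of 3 promoters are shown because the promoters of these genes are known to share binding motifs of a few factors. Cycs carries a motif of NRF1, Sdhd of ETS factors, and Ndufa4, the gene with the smallest p in more than 1 comparison below, none of those searched. Each run is the 250 bases before the start site in RefSeq of GRCm38.p6, from 5′ to 3′ on the gene's strand, with motif matches in capitals. They lie at chr6:50566570-50566819, chr9:50603850-50604099 and chr6:11907451-11907700, all on the minus strand.
Cycs: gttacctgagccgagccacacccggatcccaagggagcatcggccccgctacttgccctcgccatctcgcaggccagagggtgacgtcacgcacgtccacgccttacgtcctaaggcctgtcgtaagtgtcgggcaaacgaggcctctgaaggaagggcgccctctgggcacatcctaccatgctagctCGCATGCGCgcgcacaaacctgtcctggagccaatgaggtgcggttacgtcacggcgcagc
Sdhd: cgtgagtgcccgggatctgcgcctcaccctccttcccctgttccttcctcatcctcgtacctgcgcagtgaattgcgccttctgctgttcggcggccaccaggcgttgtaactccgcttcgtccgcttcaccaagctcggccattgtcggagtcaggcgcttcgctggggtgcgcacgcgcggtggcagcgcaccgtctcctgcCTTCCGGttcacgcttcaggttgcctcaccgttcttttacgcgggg
Ndufa4: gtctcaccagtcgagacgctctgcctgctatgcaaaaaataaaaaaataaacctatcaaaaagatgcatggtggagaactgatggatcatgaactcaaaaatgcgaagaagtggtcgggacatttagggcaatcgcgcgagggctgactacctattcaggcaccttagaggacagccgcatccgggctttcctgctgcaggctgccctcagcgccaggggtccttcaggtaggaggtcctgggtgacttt

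Windows from 250 bases before to 50 bases after a start site were found for 67 of the 80 genes (72 windows). They were searched on both strands for GCGCATGCG (NRF1), CCGGAAG (ETS factors such as GABPA), TCAAGGTCA (the oestrogen-related receptors, ERR), AAGATGGCG (YY1) and AGGTCAAAG, part of the element bound by PPAR with its partner RXR. The last overlaps the ERR motif in the letters AGGTCA. The NRF1 motif was in 12.5% of the 72 windows and in 1.75% of all 32851 windows, which include those of non-coding genes. For the ETS motif these shares were 23.6% and 8.86%, for YY1 9.72% and 1.4%, and for ERR 2.78% and 0.423%. The 9 genes with the NRF1 motif were Atp5g2, Atp5k, Atp5l, Cox6a1, Cycs, Ndufa11, Ndufa8, Uqcr11 and Uqcrc1. In Cycs it began 61 bases before the start site, and in Sdhd the ETS motif began 46 bases before it. Sdhd and Atp5g3 held the ERR motif, which in Sdhd began 37 bases into the transcript, past the stretch shown. The PPAR letters were in 0 of the 72 windows and in 0.426% of all windows. A match is a description of letters and not a bound site.

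No gene of the 80 passed the test in any comparison. In limma's fit over all 10 arrays, with Benjamini-Hochberg adjustment over 23099 probe sets, 0 of the 80 passed for rosiglitazone in WT (0% of all probe sets passed), for rosiglitazone in KO (0%), for KO against WT in vehicle (0%), for KO against WT in rosiglitazone (0.0216%, which is 5 probe sets) and for the difference between the responses of the genotypes (0%). At an unadjusted p under 0.05 the numbers of the 80 were 0, 1, 0, 2 and 1 in the same order, beside 1.02%, 3.11%, 5.89%, 5.03% and 2.38% of all genes. This fit does not use the pairing of arrays by mouse. With the donor mouse as a random block in limma, the numbers at that level were 0, 4, 1, 2 and 2 of the 80. Beside them stood 697, 1560, 1070, 1080 and 1147 of the 23099 probe sets, and again no gene of the 80 passed. Nothing says that the organoids of a mouse were grown more than once, so the p-values measure the spread between these arrays. The members' levels and differences are therefore given as descriptions, with the spread between arrays beside them.

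Complex by complex, the mean level differed little between the 4 groups. For complex I it was 8.81 ± 0.023 (SD, n = 2) in WT vehicle, 8.74 ± 0.12 (n = 3) in WT rosiglitazone, 8.69 ± 0.058 (n = 2) in KO vehicle and 8.72 ± 0.051 (n = 3) in KO rosiglitazone. The relative values were 5.16 ± 0.11, 5.09 ± 0.16, 5.03 ± 0.099 and 5.13 ± 0.020. Complex II read 9.48 ± 0.090, 9.41 ± 0.22, 9.26 ± 0.035 and 9.43 ± 0.073 in the same groups. Relative to the array median it read 5.83 ± 0.18, 5.76 ± 0.26, 5.61 ± 0.076 and 5.85 ± 0.032. In both, as in complexes III to V below, the KO vehicle group had the lowest mean on both scales. Its arrays overlapped those of WT vehicle in complex V on both scales, and in complex I on the relative scale. WT rosiglitazone had the widest spread in complexes I to III, with the array of mouse 48 at 8.60, 9.17 and 9.49. Complex III read 9.64 ± 0.0027, 9.62 ± 0.12, 9.48 ± 0.014 and 9.53 ± 0.051. Relative to the array median it read 5.99 ± 0.086, 5.97 ± 0.16, 5.83 ± 0.026 and 5.94 ± 0.022. For complex IV the means were 7.35 ± 0.017, 7.33 ± 0.050, 7.23 ± 0.018 and 7.25 ± 0.064. Relative to the array median they were 3.70 ± 0.072, 3.67 ± 0.090, 3.58 ± 0.059 and 3.67 ± 0.10. These means include tissue-limited isoforms below the array median, and Cox6b2. For KO minus WT, Cox6b2 was at -0.89 in vehicle and -1.22 in rosiglitazone. The medians of the 17 genes were -0.05 and -0.02, so much of the gap between the complex IV means rests on Cox6b2. Complex V had 9.90 ± 0.050, 9.87 ± 0.026, 9.76 ± 0.15 and 9.84 ± 0.073. Relative to the array median it had 6.25 ± 0.14, 6.22 ± 0.073, 6.11 ± 0.19 and 6.26 ± 0.064. The complex V mean of mouse 48, 9.85, was raised by Atp5md, at 11.16 on that array and 9.45 to 9.74 on the others. The spread of 0.026 in WT rosiglitazone therefore does not show that the other genes of complex V were level there. The level of 1 complex cannot be set against another, because each probe set has its own brightness.

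**Figure D1:**
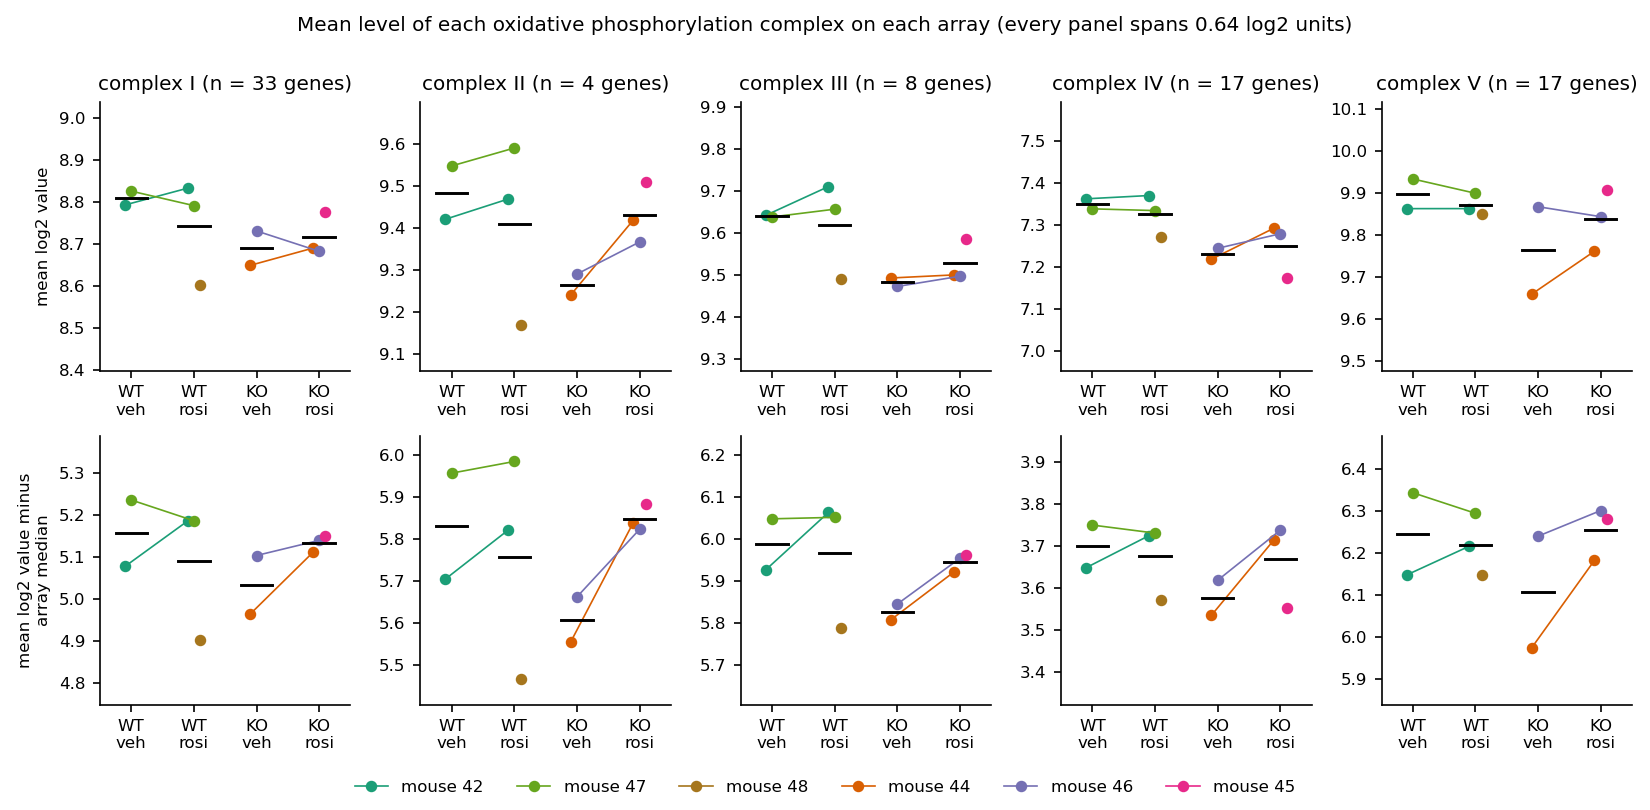
Mean log2 value of the genes of each complex on each of the 10 arrays, as deposited (top) and minus the array median (bottom), by group (veh, vehicle; rosi, rosiglitazone). Points are arrays coloured by mouse, lines join the arrays of 1 mouse and black bars are group means. In each complex the KO vehicle mean is the lowest, at 9.26 in complex II as deposited. As deposited, the array of mouse 48 lies below both WT vehicle arrays in each complex.

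In vehicle, KO organoids had lower values than WT for 65 of the 80 genes, with a median difference of -0.10. Among all genes 44.4% were lower, with a median of 0.03, and among the 10473 genes above the median of all probe sets, to which 75 of the 80 belong, 58.9% were lower with a median of -0.04. By complex, 26 of 33 genes were lower in complex I (median -0.10), 4 of 4 in complex II (-0.22), 7 of 8 in complex III (-0.16), 13 of 17 in complex IV (-0.05) and 15 of 17 in complex V (-0.11). In 25 of the 80 both KO arrays lay below both WT arrays, where this held for 16.2% of all genes (23.4% of those above the median), and in 2, Cox7a2l and Cox8b, both lay above (23.3%). The second probe set of Cox7a2l differed by -0.18, against 0.18 for the first. The 25 held 10 genes of complex I, 2 of complex II, 3 of complex III, 4 of complex IV and 6 of complex V. Relative to the array median 67 of 80 were lower, beside 45.1% of all genes and 59.6% of those above the median of all probe sets. On that scale both KO arrays lay below both WT arrays in 21 of the 80. This held for 2834 of all 18820 genes and for 2289 of the 10473 above the median. Both lay above in 3 of the 80, and in 3784 of all genes. As deposited, without the KO array of mouse 44 the number lower was 50 (median -0.08), and without both arrays of mouse 46 it was 60 (median -0.13).

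Markers of cell types differed between the same arrays. The 14 colonocyte markers summed to 84.4 and 90.4 in WT vehicle and to 77.3 and 78.9 in KO vehicle, and 12 of 14 were lower in KO. The 12 epithelial markers summed to 120.9 to 122.9 and to 119.4 to 121.2, with 10 of 12 lower in KO (median -0.11), and the 10 proliferation markers to 84.7 to 86.6 and to 83.6 to 84.3. Their part in the lower values was not tested. In such bulk RNA, fewer cells of a type and less RNA per cell cannot be told apart.

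Uqcrq, a small subunit of complex III, had the smallest p in this comparison. It read 9.55 in both WT vehicle arrays and 8.90 and 9.39 in the KO arrays of mice 44 and 46. The 2 groups did not overlap, but the KO mice differed from each other by more than the nearer of them did from WT. The difference was -0.41 (SE 0.19, n = 2 and 2, limma adjusted p = 0.855). In rosiglitazone, Uqcrq read 9.62, 9.68 and 9.50 in WT mice 42, 47 and 48 and 9.22, 9.45 and 9.63 in KO mice 44, 45 and 46, where the groups overlapped (-0.16, SE 0.15).

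Sdhd and Sdhb, of complex II, showed the same kind of spacing. Sdhd, which with Sdhc anchors the enzyme in the membrane, read 9.29 and 9.34 in WT vehicle and 8.79 and 9.04 in KO vehicle (difference -0.40, SE 0.21, limma adjusted p = 0.855). Sdhb, the iron-sulfur subunit, read 8.98 and 9.21 against 8.88 and 8.57 (-0.37, SE 0.20). For Sdhd mouse 44 was the lower of the KO mice, and for Sdhb mouse 46 was. Sdha, the flavoprotein that oxidises succinate, and Sdhc differed by -0.08 (SE 0.16) and -0.03 (SE 0.17), and their groups overlapped.

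Within complex I the 6 core subunits measured, which carry the electron path, and the 27 accessory subunits were compared separately. Of the core subunits 5 of 6 were lower in KO vehicle (median -0.04), and of the accessory ones 21 of 27 (median -0.11). The core subunits Ndufs1, of the electron-input module, and Ndufv1, which binds NADH, differed by -0.03 (SE 0.19) and -0.15 (SE 0.15). Among accessory subunits Ndufa5 differed by -0.32 (SE 0.16, limma adjusted p = 0.855), with 6.19 and 6.29 in WT and 5.84 and 6.01 in KO. Ndufa1, a small membrane subunit needed for assembly of the complex and chosen here after its values were seen, had the greatest difference of the 33 genes at -0.57 (SE 0.31). It read 6.72 and 6.76 in WT and 5.74 and 6.60 in mice 44 and 46, so that most of the difference lay in 1 array.

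Among the other core subunits no difference in vehicle exceeded its SE by a factor of 2. Uqcrc1, a core protein of complex III, was -0.23 (SE 0.14) with no overlap, and Uqcrfs1, its Rieske iron-sulfur protein, was 0.03 (SE 0.26). Cox5a of complex IV was -0.16 (SE 0.15). In complex V, Atp5a1 and Atp5b, which form the catalytic ring, were -0.15 (SE 0.19) and -0.02 (SE 0.14), whereas Atp5c1, the rotating shaft within that ring, was -0.35 (SE 0.25, adjusted p = 0.863 in limma). Atp5c1 read 9.43 and 9.28 in WT against 8.75 and 9.26 in mice 44 and 46, and without the array of mouse 44 its difference was -0.09. Atp5b had a range of 0.25 over all 10 arrays, where the median range of the 80 genes was 0.48 and that of all genes 0.61.

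**Figure D2:**
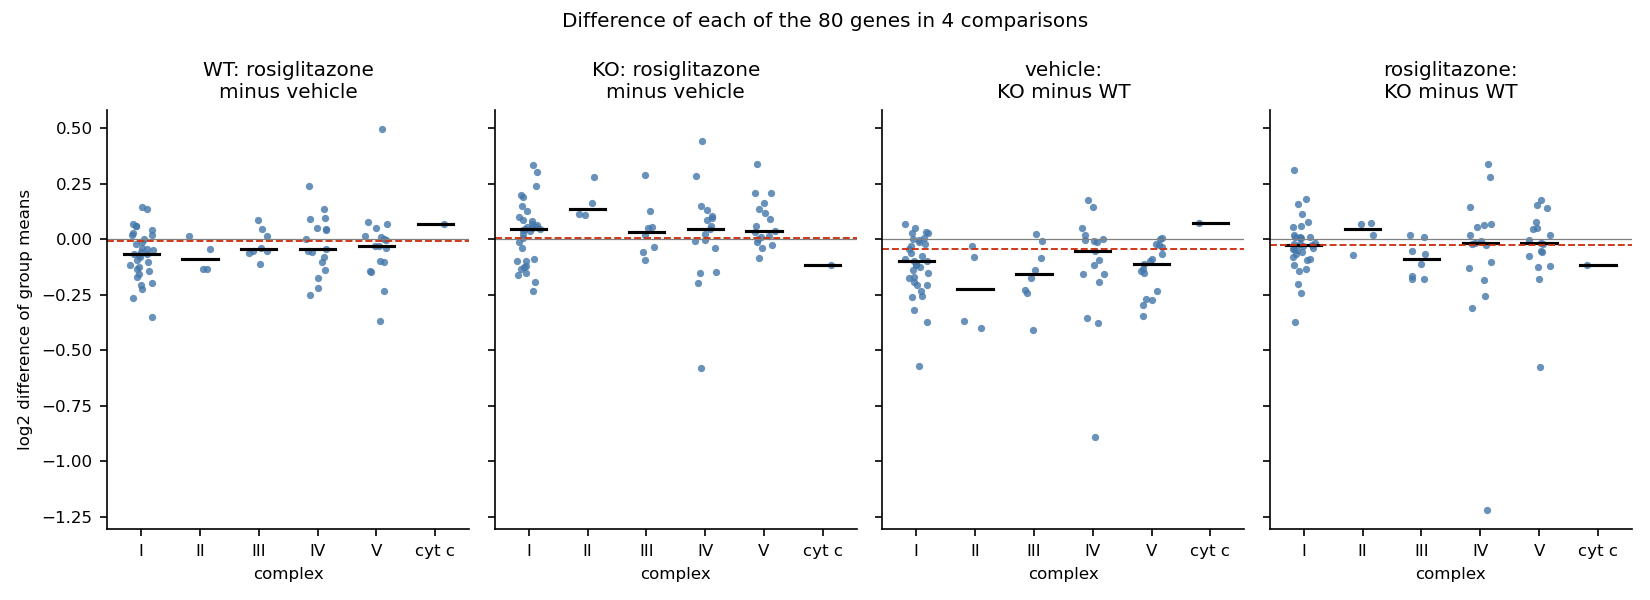
Log2 difference between group means for each of the 80 genes (points), by complex, in 4 comparisons. Black bars are medians of a complex and the red dashed line is the median of all genes above the median of all probe sets. In vehicle the points of KO minus WT lie below 0 for 65 of 80 genes, and above 0 for the other 15.

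Rosiglitazone in WT organoids went with small differences on both sides of 0. Of the 80 genes 29 were higher and 51 lower, with a median of -0.04, where 45.2% of all genes were lower and the median was 0.02, and 53.2% of the genes above the median of all probe sets were lower (median -0.0095). The medians were -0.07 in complex I, -0.09 in complex II, -0.05 in complex III, -0.04 in complex IV and -0.03 in complex V. Groups did not overlap for 1 gene that was higher (8.99% of all genes) and 4 that were lower (6.66%), namely Ndufs4, Ndufb3, Ndufa2 and Uqcrc1. The array of mouse 48 held the lowest value of 19 of the 80. Without it 43 were lower and the median was -0.0062. Of the colonocyte markers 13 of 14 were lower in this comparison (median -0.24), of the goblet and deep crypt secretory markers 9 of 11 (median -0.30) and of the epithelial markers 9 of 12 (median -0.06), and their part in these differences was not tested. Within the mice that had both treatments 47 of 80 were higher in mouse 42 (median 0.04) and 33 of 80 in mouse 47 (median -0.02).

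Atp5c1 had the smallest p in that comparison. In WT rosiglitazone it read 9.32, 9.03 and 8.60 in mice 42, 47 and 48 against 9.43 and 9.28 in vehicle, a difference of -0.37 (SE 0.23, limma adjusted p = 1). Within mice 42 and 47 the difference was -0.10 and -0.25. Cox6c, a small subunit of complex IV, differed by -0.17 (SE 0.13) over the groups, and rosiglitazone was lower than vehicle in all 4 mice with both treatments, by -0.13, -0.10, -0.12 and -0.11 in mice 42, 47, 44 and 46.

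In KO organoids 53 of the 80 genes were higher after rosiglitazone and 27 lower, with a median of 0.05 (46% of all genes were higher, median -0.02, and 51.4% of those above the median of all probe sets, median 0.0056). By complex, 21 of 33 genes were higher in complex I (median 0.05), 4 of 4 in complex II (0.14), 5 of 8 in complex III (0.03), 10 of 17 in complex IV (0.05) and 13 of 17 in complex V (0.03). Relative to the array median 63 were higher, beside 63.1% of all genes and 68.3% of those above the median of all probe sets. On that scale the median was 0.12, beside 0.06 for all genes and 0.08 for those above the median. These values exceed the deposited ones because the medians of the KO rosiglitazone arrays were lower on average than those of KO vehicle. The groups did not overlap for 7 genes that were higher (5.79% of all genes) and 3 that were lower (8%). The 7 were Ndufb10, Ndufv2, Ndufc2, Sdhd, Ndufa4, Cox7b2 and Atp5l, and the 3 were Ndufc1, Ndufb4 and Cox6c. Without the vehicle array of mouse 44 the count turned to 38 higher and 42 lower (median -0.0044), and without mouse 45, which had no vehicle array, it was 43 higher (median 0.01). Within mouse 44 45 of 80 were higher (median 0.04) and within mouse 46 36 of 80 (median -0.01). Goblet and deep crypt secretory markers summed to 77.5 in the array of mouse 45 and to 37.1 to 59.2 in the other arrays of KO organoids. Of these 10 of 11 were higher after rosiglitazone (median 1.5), as were 9 of 12 epithelial markers (0.05), 8 of 14 colonocyte markers (0.02) and 8 of 10 proliferation markers (0.22), and their part in these differences was not tested.

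Complex II, the smallest of the complexes, had differences of 0.11 to 0.28 after rosiglitazone in KO. Its mean was 9.24 and 9.29 in vehicle in mice 44 and 46 and 9.42, 9.51 and 9.37 in rosiglitazone in mice 44, 45 and 46, so that the groups did not overlap. This was not particular to complex II. The KO means of complex III did not overlap either, at no more than 9.492 in vehicle and no less than 9.496 in rosiglitazone. Relative to the array median those of complex I also lay apart, at no more than 5.104 and no less than 5.111. In WT the mean of complex II was 9.42 and 9.55 in vehicle and 9.47, 9.59 and 9.17 in mice 42, 47 and 48, and 3 of its 4 genes were lower (median -0.09). Within the paired mice the median of the 4 genes was 0.05 and 0.03 in WT mice 42 and 47 and 0.23 and 0.11 in KO mice 44 and 46. A set of 4 genes with these differences gives no test of its own, and none of the 4 passed alone.

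Ndufa4 was the member with the smallest p for rosiglitazone in KO and for the difference between the responses. In WT it read 8.28 and 8.25 in vehicle (mice 42 and 47) and 8.34, 7.98 and 7.82 in rosiglitazone (mice 42, 47 and 48). In KO it read 7.79 and 7.99 in vehicle (mice 44 and 46) and 8.25, 8.55 and 8.19 in rosiglitazone (mice 44, 45 and 46). The KO groups did not overlap and the WT groups did. The difference in KO was 0.44 (SE 0.18, unadjusted p = 0.0298, adjusted p = 1 in limma), beside 1.26% of all genes that were higher at an unadjusted p under 0.05. The difference between the responses was 0.66 (SE 0.25, unadjusted p = 0.0232, adjusted p = 1 in limma), beside 0.914% of all genes. With the donor mouse as a fixed block the latter was 0.44 (SE 0.19, unadjusted p = 0.0627, adjusted p = 0.957 in limma), the smallest over its alternatives. The treatment difference within mice was 0.46 and 0.20 in KO mice 44 and 46, and 0.06 and -0.27 in WT mice 42 and 47. With the donor mouse as a random block the difference in KO was 0.39 (limma adjusted p = 0.648), and over all alternatives it stayed between 0.33 and 0.61.

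**Figure D3:**
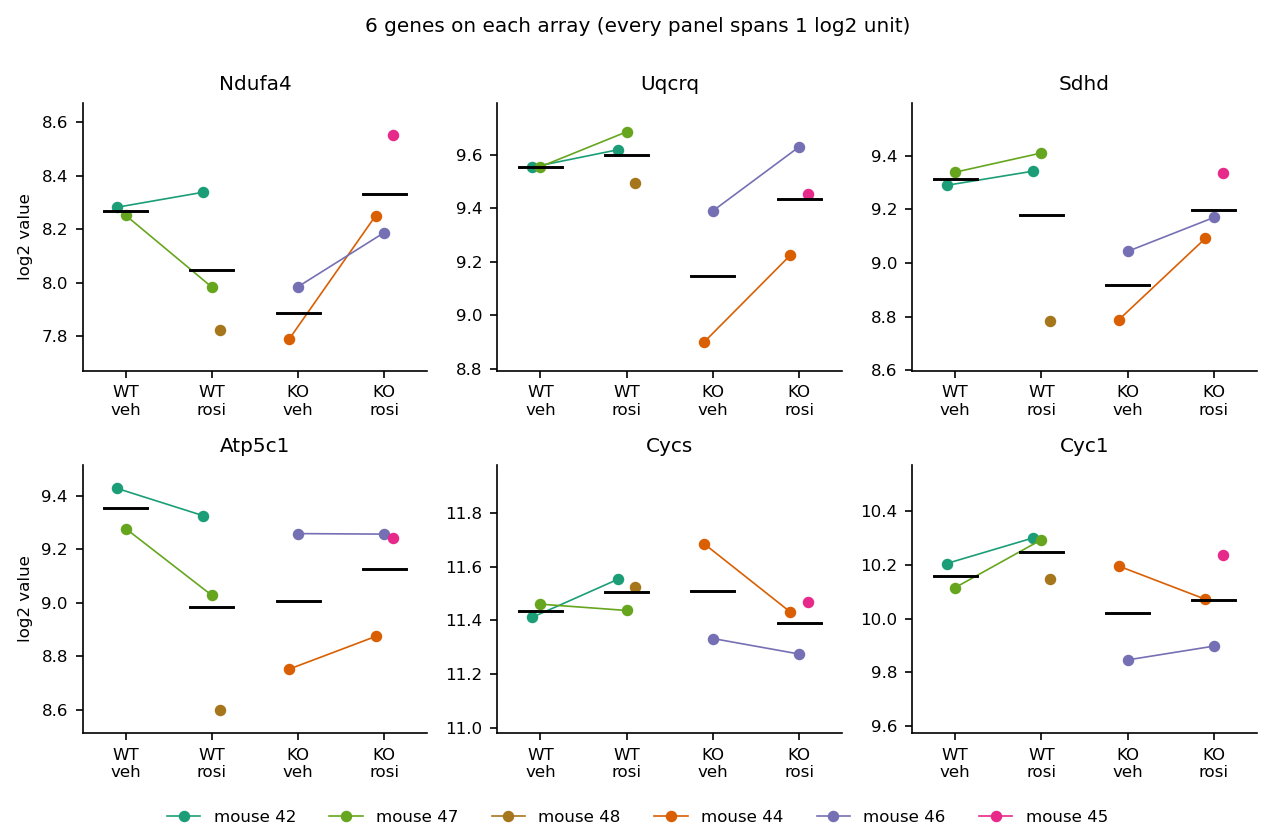
Log2 values of Ndufa4, Uqcrq, Sdhd, Atp5c1, Cycs and Cyc1 on each of the 10 arrays, by group, coloured by mouse. Lines join the arrays of 1 mouse and black bars are group means. Ndufa4 in KO is 7.79 and 7.99 in vehicle and 8.19 to 8.55 in rosiglitazone, while mouse 48 is lowest for Sdhd at 8.78 and for Atp5c1 at 8.60.

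Atp5l, a membrane subunit of ATP synthase that helps its dimers form, had 6 probe sets, which differed in the same direction for rosiglitazone in KO, by 0.17 to 0.34. Because such short genes have processed copies in the genome, these probe sets may read more than 1 locus and are not independent. The brightest read 7.39 and 7.75 in KO vehicle (mice 44 and 46) and 7.79, 8.02 and 7.93 in KO rosiglitazone (mice 44, 45 and 46), a difference of 0.34 (SE 0.16, adjusted p = 1 in limma). Of the 23 genes with several probe sets, 9 had probe sets of both signs in this comparison.

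Between the responses, 57 of the 80 genes had a more positive difference in KO than in WT (median 0.08), beside 43.9% of all genes (median -0.04) and 52.4% of those above the median of all probe sets (median 0.01). The colonocyte markers (11 of 14, median 0.49), the goblet and deep crypt secretory markers (10 of 11, median 1.83) and the epithelial markers (10 of 12, median 0.11) were also more positive, and their part was not tested. The goblet sums of KO organoids in rosiglitazone ran from 37.1 to 77.5, highest in mouse 45, which gave no vehicle array. On the 4 mice with both treatments 36 of the 80 genes were more positive in KO (median -0.01), and without both arrays of mouse 46 it was 56 (median 0.13). Within-mouse differences of both KO mice lay above those of both WT mice for 14 genes (16.2% of all genes) and below them for 15 (17.3%). These counts of the 80 are near the background on both sides. The treatment differences had 1 sign in both WT mice and the other in both KO mice for 7 of the 80 genes (8.75%), beside 11.8% of all genes. Ndufb6, an accessory subunit of complex I, differed by 0.50 between the responses (SE 0.32), but its within-mouse differences were 0.63 and -0.23 in KO mice 44 and 46.

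KO and WT organoids in rosiglitazone differed by a median of -0.02, with 32 of 80 genes higher and 48 lower (50.3% of all genes were lower). Of the genes above the median of all probe sets 56.2% were lower, with the same median of -0.02. Of the goblet and deep crypt secretory markers 11 of 11 were higher in KO by group mean (median 1.24), and their part was not tested. The groups overlapped for all 11. Their sums were 59.2, 77.5 and 37.1 in KO mice 44, 45 and 46 and 39.9 to 49.5 in WT, so that mouse 46 lay below each WT array. Groups did not overlap for 2 genes that were higher, Ndufb6 and Cox7b2 (4.23% of all genes), and for 1 that was lower, Atp5g2 (4.77%). Relative to the array median the count turned to 54 higher and 26 lower (median 0.05). On that scale 66.5% of all genes were higher (median 0.07), and 61.2% of those above the median of all probe sets (median 0.04). Without the array of mouse 48 the count was 18 higher (median -0.10), and without both arrays of mouse 46 it was 40 of 80. Leaving out the array of WT mouse 42, WT mouse 47 or KO mouse 46 in rosiglitazone moved the median to between 0.0006 and 0.0027. Cox7b2 differed by 0.34 (SE 0.12, unadjusted p = 0.0154, adjusted p = 0.957 in limma; 1.91% of all genes were higher at that level), but its values of 1.62 to 2.19 lay below the array median on each array. Ndufs5, an accessory subunit of complex I, differed by -0.37 (SE 0.18). Its values were 7.05, 6.85 and 6.40 in WT mice 42, 47 and 48 and 6.27, 6.59 and 6.33 in KO mice 44, 45 and 46, which overlapped.

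Cytochrome c1, the subunit of complex III encoded by Cyc1, hands electrons to cytochrome c, the soluble carrier encoded by Cycs. Cycs read 11.41 and 11.46 in WT vehicle, 11.55, 11.44 and 11.53 in WT rosiglitazone (mice 42, 47 and 48), 11.68 and 11.33 in KO vehicle (mice 44 and 46) and 11.43, 11.47 and 11.27 in KO rosiglitazone (mice 44, 45 and 46). Mouse 46 held the lowest pair, and the vehicle array of mouse 44 the highest value. The differences of Cycs were 0.07 (SE 0.14) for rosiglitazone in WT, -0.12 (SE 0.14) in KO and 0.07 (SE 0.15) for KO against WT in vehicle. Cyc1 read 10.21 and 10.12, then 10.30, 10.29 and 10.15 in WT, and 10.20 and 9.85, then 10.07, 10.24 and 9.90 in KO in the same order of mice. Here too both arrays of mouse 46 were the lowest, and without them the difference of Cyc1 between KO and WT in vehicle was 0.03 in place of -0.14.

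In median, the 80 genes differed more between the paired mice of 1 genotype than between treatments in WT, and in KO this held in vehicle. The median absolute difference between the treatments within a mouse was 0.08, 0.06, 0.13 and 0.09 in mice 42, 47, 44 and 46. Between mice 42 and 47 it was 0.10 in vehicle and 0.12 in rosiglitazone, and between mice 44 and 46 it was 0.24 and 0.12. For all genes these were 0.11 to 0.16 within mice, and 0.23 between mice 44 and 46 in vehicle. Both arrays of mouse 46 were the lowest pair for 12 of the 80 genes, where this held for 7.86% of all genes (11.7% of those above the median). They were Atp5b, Atp5d, Atp5g1, Cox7b, Cyc1, Cycs, Ndufa11, Ndufa12, Ndufb8, Ndufs8, Sdhb and Uqcr11. The arrays of mouse 44 were the lowest pair for 11 others (3.99% of all genes and 5.78% of those above the median). These were 5 of complex V (Atp5g2, Atp5k, Atp5md, Atp5o and Atp5pb), 3 of complex I (Ndufa1, Ndufa10 and Ndufb7), Cox5b, Uqcr10 and Uqcrq. Mice 42, 47, 44 and 46 held the highest pair for 4, 8, 2 and 3 of the 80. For all genes this held for 3.42%, 2.15%, 5.46% and 8.42%, and above the median for 5.38%, 2.83%, 4% and 9.56%.

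Low values gathered on 2 arrays of different groups, picked here after the values of the 80 genes were seen. The WT rosiglitazone array of mouse 48 and the KO vehicle array of mouse 44 each held the lowest value of 19 genes, so that 38 of the 80 (47.5%) were lowest on 1 of them, where this held for 18.9% of all genes and 25% of those above the median. Genes above the median were most often lowest on other arrays, those of mouse 45 in rosiglitazone (16.4%) and mouse 46 in vehicle (16.1%). For all genes these held 15% and 13.3%. The shares of 18.9% and 25% are thus not those of a pair picked in the same way. The mean over the 80 genes was 8.74 for mouse 48 in rosiglitazone and 8.71 for mouse 44 in vehicle, and 8.77 to 8.90 on the others. The epithelial marker sums of these 2 arrays, 120.0 and 119.4, were also the lowest of the 10 (the others 120.7 to 122.9). Their colonocyte sums of 77.4 and 77.3 were the lowest as well. The part of the marker levels in these low values was not tested.

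**Figure D4:**
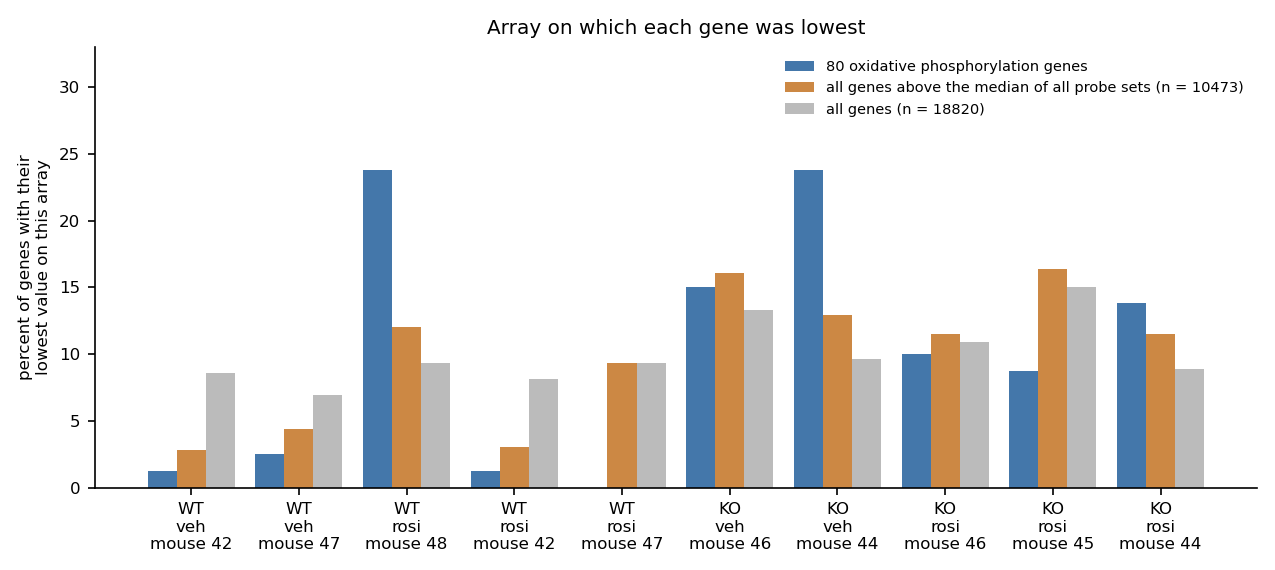
Percent of genes that had their lowest value on each array, for the 80 oxidative phosphorylation genes, for genes above the median of all probe sets and for all genes. The arrays of mouse 48 in rosiglitazone and of mouse 44 in vehicle reach 23.8% each for the 80 genes, and for all genes 9.33% and 9.6%. The highest shares for all genes are 15% for mouse 45 in rosiglitazone and 13.3% for mouse 46 in vehicle.

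The range over the 10 arrays exceeded 1 for 6 of the 80 genes, Cox6b2, Atp5md, Ndufs6, Cox7a1, Ndufa1 and Cox8b. Atp5md, a small protein of the ATP synthase membrane part, read 11.16 in WT rosiglitazone of mouse 48 and 9.45 to 9.74 on the other 9 arrays. All 3 of its probe sets were highest on that array, with ranges of 1.30 to 1.71. The difference for rosiglitazone in WT was 0.50 (SE 0.38), and -0.03 without this array. Ndufs6, an accessory subunit of complex I, was lowest on the same array at 7.37 and highest at 8.82 in KO vehicle of mouse 46, with the other 8 arrays at 7.98 to 8.42.

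Among the tissue-limited isoforms of complex IV, the testis forms Cox8c and Cox7b2 and the muscle form Cox8b lay below the array median on 10 of 10 arrays, and the muscle form Cox6a2 on 9 of 10. Ndufa4l2, a relative of Ndufa4 known from hypoxic cells, was below it on 10 of 10 as well. The widely expressed partners Cox8a, Cox7b and Cox6a1 lay above it on all arrays. Cox7a1 and Cox6b2, known from muscle and testis, were above the median on 10 of 10 arrays, as were Cox7a2 and Cox6b1. Cox6b2 read 6.61 and 7.15 in WT vehicle, 6.89, 7.09 and 5.91 in WT rosiglitazone (mice 42, 47 and 48), 6.00 and 5.98 in KO vehicle, and 6.01, 4.02 and 6.19 in KO rosiglitazone (mice 44, 45 and 46). Its KO values lay below those of WT mice 42 and 47 in both treatments, and mouse 48 lay with the KO arrays apart from mouse 45. The difference between KO and WT was -0.89 (SE 0.62) in vehicle and -1.22 (SE 0.51, unadjusted p = 0.0358, adjusted p = 0.999 in limma; 3.12% of all genes were lower at that level) in rosiglitazone, and without mouse 45 the latter was -0.53. Cox7a1 was also lowest in mouse 45, at 6.43, and its KO minus WT difference was -0.36 (SE 0.31) in vehicle. Mouse 45 was the mouse with the highest goblet marker sum.

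**Figure D5:**
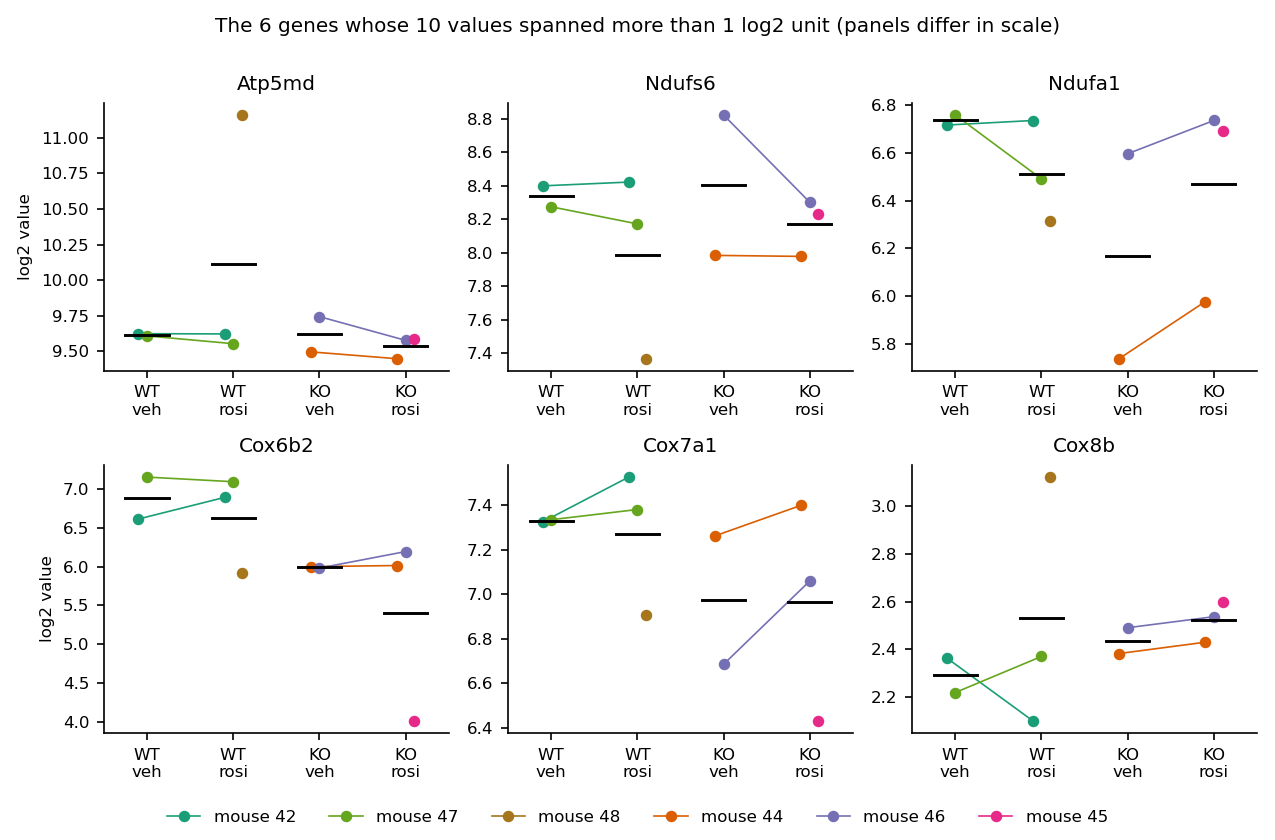
Log2 values of the 6 genes whose range over the 10 arrays exceeded 1, by group and coloured by mouse, with group means as black bars. The array of mouse 48 stands apart for Atp5md at 11.16 and that of mouse 45 for Cox6b2 at 4.02.

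Other genes of the pathway, from a list of assembly factors, further subunits, regulators of mitochondrial biogenesis and carriers, were read beside the 80. Of 88 such genes 37 were higher for rosiglitazone in WT, 59 for rosiglitazone in KO, 30 for KO against WT in vehicle and 40 for KO against WT in rosiglitazone, and 0 of 88 passed in any comparison. In vehicle 58 of 88 were thus lower in KO (median -0.07), and 5 had an unadjusted p under 0.05, all lower (2.70% of all genes were lower at that level). The 3 with the smallest p were Higd1a, a hypoxia-induced protein that binds cytochrome c oxidase (-0.97, SE 0.29), Ndufaf4, an assembly factor of complex I (-0.59, SE 0.20), and Coq7, of ubiquinone synthesis (-0.38, SE 0.15), each at an adjusted p of 0.846 to 0.855 in limma. Coa7 and Foxred1, assembly factors named after their values were seen, made up the 5.

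Higd1a read 4.77 and 4.60 in WT vehicle and 3.63 and 3.79 in KO vehicle (mice 44 and 46). In rosiglitazone it read 4.70, 4.49 and 3.70 in WT mice 42, 47 and 48 and 3.95, 3.67 and 4.15 in KO mice 44, 45 and 46. As for Cox6b2, mouse 48 lay within the KO range. The low values of Higd1a lay near the array medians, which were 3.68 and 3.63 in KO vehicle (mice 44 and 46). In rosiglitazone the medians were 3.70 for mouse 48 and 3.63 for mouse 45. Ndufaf4 read 6.06 and 5.92 in WT vehicle against 5.59 and 5.22 in KO vehicle, with no overlap, and the groups overlapped in rosiglitazone (-0.11, SE 0.16). Cox4i1, the subunit of complex IV outside the naming rule, differed by -0.22 (SE 0.20) in vehicle. Ppargc1a, a coactivator that drives mitochondrial biogenesis, differed by 0.08 (SE 0.24) for rosiglitazone in WT, -0.22 (SE 0.24) in KO and 0.11 (SE 0.26) for KO against WT in vehicle. Its relative Ppargc1b differed by 0.29 (SE 0.14, adjusted p = 1 in limma) for rosiglitazone in WT and 0.03 (SE 0.14) in KO, and in rosiglitazone KO was at -0.32 (SE 0.13) against WT.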

How the data were processed

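Total RNA of 10 organoid samples was hybridised to Affymetrix whole-transcript arrays, 1 colour and 1 array per sample. The deposited log2 values are per probe set and were made by the authors with RMA (background correction, quantile normalization and probe summary), per the submitters' processing notes. The version and the chip definition were not stated there. No further normalization was applied to the 35556 probe sets, and the 23099 with a gene symbol were tested.

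Means of the 4 groups were fitted over all 10 arrays with lmFit and eBayes of limma 3.58.1 (R 4.3.3), and 5 comparisons were tested, each with Benjamini-Hochberg adjustment and a threshold of 0.05. Groups came from the sample titles. The donor mouse in the labels pairs arrays of 4 mice, and deviations from group means correlated within mice at 0.44 (mice 42 and 47) and 0.487 (mice 44 and 46) over probe sets. A donor block, other scalings, filters and sets of arrays were alternatives. On simulated data for rosiglitazone in WT with 23099 probe sets, 69% of log2 changes of 1 and 96% of changes of 2 were recovered, with 12 false calls. Each simulated array was drawn independently with no shared donor, unlike the arrays here, which correlated within mice. The shares recovered therefore do not measure the power of the test on these arrays. Smaller changes, the size of nearly all differences reported, were not simulated. Named were the 6 genes given by name, the 3 smallest p per comparison, core subunits, tissue-limited isoforms, and up to 3 other pathway genes per comparison. Members and gene lists were chosen with earlier results of these data known. Promoters came from RefSeq (GRCm38.p6).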

Additional observations from a re-analysis of the deposited data

Results flagged for a closer look

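In 7 of the 80 genes the treatment difference had opposite signs in the mice of the 2 genotypes, over the 4 mice with both treatments, which held for 11.8% of all genes. Given in the order of WT mice 42 and 47 and KO mice 44 and 46, rosiglitazone minus vehicle was -0.0555, -0.15, 0.40 and 0.17 for Atp5l. For Ndufs5 it was 0.40, 0.25, -0.49 and -0.0038. For Atp5j, a stalk subunit of ATP synthase, it was 0.30, 0.0294, -0.0546 and -0.14. For Ndufa7 it was 0.0972, 0.0607, -0.0850 and -0.0837. For Cox5a it was -0.0150, -0.0571, 0.27 and 0.0926. For Sdhb it was -0.0158, -0.0308, 0.15 and 0.0863. For Ndufa2 it was -0.0991, -0.0373, 0.0017 and 0.0096, with both KO values close to 0.

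None of the 7 passed limma's test of the difference between the responses, without or with the donor mouse as a fixed block. The fit with the block compares the same within-mouse differences whose signs picked these 7 genes. Its unadjusted p-values for them are therefore not independent of that choice and give no separate evidence. With the block, 1175 of the 23099 probe sets had an unadjusted p under 0.05 in limma. Among the oxidative phosphorylation genes only Ndufs5 did. For Ndufs5 the difference was -0.30 (SE 0.29, adjusted p = 1 in limma), and with the block -0.57 (SE 0.21, unadjusted p = 0.0325, adjusted p = 0.957 in limma). For Atp5l it was 0.34 (SE 0.22, adjusted p = 1 in limma), and with the block 0.39 (SE 0.17, unadjusted p = 0.0621, adjusted p = 0.957 in limma).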

How the results depend on the processing

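None of the 80 genes passed the threshold under any alternative run. Below are the medians of the 80 genes that moved by more than the spread between arrays, the named genes that changed sign and the numbers of probe sets passing that moved by over 1.5 times, and the cause was not tested for any of these. Other values also moved in size: Cox6b2 for KO against WT in rosiglitazone ran from -1.61 to -0.53 and Uqcrq for the difference between the responses from 0.0002 to 0.49. With each array centred on its median, the median of the 80 genes was 0.12 for rosiglitazone in KO, 0.046 for KO against WT in rosiglitazone and 0.15 for the difference between the responses, and Cyc1 was 0.034 for the last. On the 4 mice with both treatments the medians of the last 2 were -0.13 and -0.012, and with the donor mouse as a fixed block, a paired analysis, the last was -0.012 as well. Those 4 mice and that block also gave Atp5md -0.028 and Sdhd 0.062 for rosiglitazone in WT and Cyc1 -0.036 in KO, and the 4 mice gave Sdhd -0.25 and Atp5c1 -0.11 for KO against WT in rosiglitazone. Without mouse 46, Cyc1 was -0.040 for rosiglitazone in KO and 0.035 for KO against WT in vehicle.

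The number of probe sets that passed was 1 for rosiglitazone in KO with the donor as a random block. For KO against WT in vehicle it was 1 with centring, repeated quantile normalization or the random block, 3 with the title number as a block, 4 with only the groups compared and 6 with the 4 mice. For KO against WT in rosiglitazone it was 1 with quantile normalization, all probe sets, no mouse 46 or only the groups compared, 13 with the title number as a block and 16 with the 4 mice. Leaving out 1 array at a time gave 0 to 6 in vehicle and 1 to 23 in rosiglitazone, the highest both without mouse 48. It gave medians of -0.10 to 0.0027 for KO against WT in rosiglitazone and 0.017 to 0.11 for the difference between the responses. It moved Atp5md from -0.028 to 0.77 and Sdhd from -0.25 to 0.062 for rosiglitazone in WT. For rosiglitazone in KO the ranges were -0.13 to 0.37 for Atp5c1, -0.29 to 0.058 for Cycs and -0.13 to 0.22 for Cyc1. For KO against WT they were -0.10 to 0.25 for Cycs and -0.31 to 0.035 for Cyc1 in vehicle, and -0.18 to 0.13 for Sdhd and -0.052 to 0.31 for Atp5c1 in rosiglitazone. For the difference between the responses Cyc1 ran from -0.21 to 0.14. Groups of 2 or 3 arrays limit every comparison.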
